A study of Homo sapiens with 4 samples.

Results

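Extracellular proteases cut matrix proteins and surface molecules, and dedicated inhibitors hold them in check. The genes described here are those of the deposited table whose symbol begins with ADAM and a digit, ADAMTS, MMP and a digit, or SERPIN, together with TIMP1 to TIMP4, PLAU, PLAT, PLAUR and A2M. Of 72 matching rows, 8 were dropped as antisense, opposite-strand or pseudogene rows (ADAM1A, ADAM1B and MMP23A by their annotation, the others by name), and 64 genes remained of 18375 in the table. TIMP4 was not analysed here. All 64 passed the filter on low values. RD is an established line of fusion-negative human rhabdomyosarcoma, a tumour of the skeletal muscle lineage. The parental group holds 2 libraries from untreated RD cells. The resistant group holds 2 libraries from RD cells selected with vincristine, a drug that binds tubulin, starting at 1 to 1.5 nM, a dose that 80 to 90% of the cells did not survive. Each further dose was 10 to 20% above the last, and selection took 9 to 12 months, until the half-maximal inhibitory concentration was at least 100-fold higher. Both groups carry the genotype labelled WT and share the growth medium, with serum and antibiotics. The study uses a single cell line. The labels do not say whether the resistant cells are a clone or a pool, whether the drug was present at harvest, or whether replicates are separate cultures, so p-values measure the spread between these libraries only, which may be technical.

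ADAM proteins are membrane-anchored proteases that release the outer parts of receptors, ligands and adhesion molecules, although some members lack a working active site. ADAMTS proteases are secreted and cut procollagens and large proteoglycans, and matrix metalloproteinases (MMPs) degrade collagens, gelatins and other matrix proteins. TIMPs block MMPs and several ADAMs. Urokinase (PLAU) and tissue plasminogen activator (PLAT) turn plasminogen into plasmin, PLAUR holds urokinase at the cell surface, and serpins such as SERPINE2 inactivate both activators. Alpha-2-macroglobulin (A2M) traps proteases of every class.

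The libraries held 58861281 to 67690557 reads over the genes of the table, and the values below are normalized counts, the reads of a gene divided by the library's size factor. Of 8 skeletal muscle markers 7 were measured, among them MYOD1, MYOG and DES, with summed levels of 109150 to 109510 normalized counts in parental and 202490 to 207310 in resistant libraries. Of these 7, 6 were higher in resistant cells and MYOD1 was not called. Of 7 leukocyte markers 3 were measured (CD14, LYZ and CD79A), summing to 41.6 and 53.7 in parental and 75.7 and 86.9 in resistant libraries. LYZ was called higher, and CD14 and CD79A were not called. Of 6 endothelial markers 1 was measured, TIE1, at 145 and 116 in parental and 460 and 543 in resistant libraries. TIE1 was called higher. The 6 epithelial markers summed to 5122 to 5169 in parental and 14934 to 15093 in resistant libraries, mostly through KRT18, and 6 of 7 fibroblast markers summed to 49080 to 49364 and 81358 to 82429, mostly through COL1A1. Of the epithelial markers 3 were called higher and 1 lower, and of the fibroblast markers 4 were called higher. EPCAM (58.8 and 68.6 as parental and resistant group means) and LUM (39.2 and 41.7) were among those not called. The part of these levels in the results below was not tested. In bulk RNA, fewer cells of a type and less RNA per cell cannot be told apart.

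Start-site sequences are given first, for members that were chosen after the values and motif matches were seen. Sequences are from RefSeq (GRCh38.p14), whose table held a start-site window of 250 bases before to 50 after the start for 41 of the 64 members. MMP10 belongs to the metalloproteinase genes that were lower together on chromosome 11. The others there (MMP1, MMP3 and MMP13) had no window, so their start sites are not described. SERPINE2 is the inhibitor gene that fell the most, and ADAMTS14 is the procollagen protease gene that rose. Each stretch is the 150 bases before the start, 5′ to 3′ on the gene's strand, and capitals mark motifs on either strand. These are TGANTCA (a loose form of the AP-1 site, with any base in the middle) and TATAAA in MMP10. In SERPINE2 it is GGGCGG (the GC box), and in ADAMTS14 they are GGGCGG and CAGCTG (an E-box of the muscle factors).
MMP10: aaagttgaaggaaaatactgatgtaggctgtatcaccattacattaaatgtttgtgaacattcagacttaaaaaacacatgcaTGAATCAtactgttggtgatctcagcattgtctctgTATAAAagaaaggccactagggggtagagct
SERPINE2: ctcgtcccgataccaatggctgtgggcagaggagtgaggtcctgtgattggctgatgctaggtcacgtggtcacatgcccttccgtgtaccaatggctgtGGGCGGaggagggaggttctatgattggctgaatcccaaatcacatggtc
ADAMTS14: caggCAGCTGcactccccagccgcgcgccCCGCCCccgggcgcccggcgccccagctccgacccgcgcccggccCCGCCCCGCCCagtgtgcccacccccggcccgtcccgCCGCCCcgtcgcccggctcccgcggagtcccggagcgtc
The stretches lie at chr11:102780629-102780778 (minus strand), chr2:224031479-224031628 (minus strand, at a start inside the longest gene model) and chr10:70672356-70672505 (plus strand).

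Shorter sites are shown for other called members with TGANTCA before the start, because longer stretches there overlap annotated exons. PLAUR has 1 such site, SERPINB8 has 2 and ADAMTS12 has 1, and SERPINI1 has 4 copies of CAGCTG, the most of any member.
PLAUR: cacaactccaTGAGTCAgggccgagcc
SERPINB8, site 1: gagtcaaacgTGAATCAacggtgaaaa
SERPINB8, site 2: cgaacggttcTGAGTCAtctgccggaa
ADAMTS12: cactgtcagcTGAATCActcccctttt
SERPINI1, first site: agtggcagagCAGCTGcagaagtgca
SERPINI1, last site: ggaggagcaaCAGCTGccaaattcgc
These sites lie at chr19:43670339-43670365 (minus strand), chr18:63969886-63969912 and chr18:63970043-63970069 (plus strand), chr5:33892058-33892084 (minus strand), and chr3:167735537-167735562 and chr3:167735633-167735658 (plus strand). All of them except SERPINB8 site 1 lie inside the annotated span of their own gene. In ADAMTS12 the TGANTCA letters overlap a CAGCTG. The TGANTCA letters occur in the windows of 5 of 41 members (12.2%), against 4.94% of 11471 windows of tested genes and 7.76% of all 27305 windows. The windows with them belong to 3 of 20 members called lower (MMP10, PLAUR, SERPINB8), 1 of 17 called higher (ADAMTS12) and SERPINE3, which was not called. The middle base was G in PLAUR and SERPINB8 site 2. It was A in MMP10, ADAMTS12 and SERPINB8 site 1, and T in SERPINE3. CAGCTG was in 7 of 41 member windows (17.1%) against 17.4% for tested genes and 17.7% for all. GGGCGG was in 30 (73.2%) against 68.2% and 44.6%, and TATAAA in 6 (14.6%) against 6.10% and 12.0%. The share for tested genes was added after the share over all windows had been seen. A match of letters describes the sequence and does not show a bound factor.

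Of the 64 genes, 26 were higher and 31 lower in resistant cells, and 7 were not called (limma with Benjamini-Hochberg adjustment over all 18330 genes tested, threshold 0.05). Over all genes tested, 66.9% were called, 32.7% as higher and 34.2% as lower, while 89.1% of the members were called. A change of at least 2-fold was called for 23 members, 11 higher and 12 lower, which is 35.9% of them against 15.5% of all genes (8.96% higher and 6.57% lower). The median mean level was 829 normalized counts for the members and 885 for all genes tested. The median log2 fold change was -0.13 for the members and 0.00 for all genes, and the median size of change, without sign, was 0.65 against 0.36. In 62 of 64 members the 2 parental and 2 resistant libraries did not overlap, against 82.1% of all genes. Among 44 genes of the protease families 20 rose and 19 fell, and among 15 genes of the inhibitor families 4 rose and 9 fell. These families also hold proteins without that activity, such as ADAM11, ADAM22 and ADAM23, and SERPINF1 and SERPINH1, both of which fell.

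**Figure D1:**
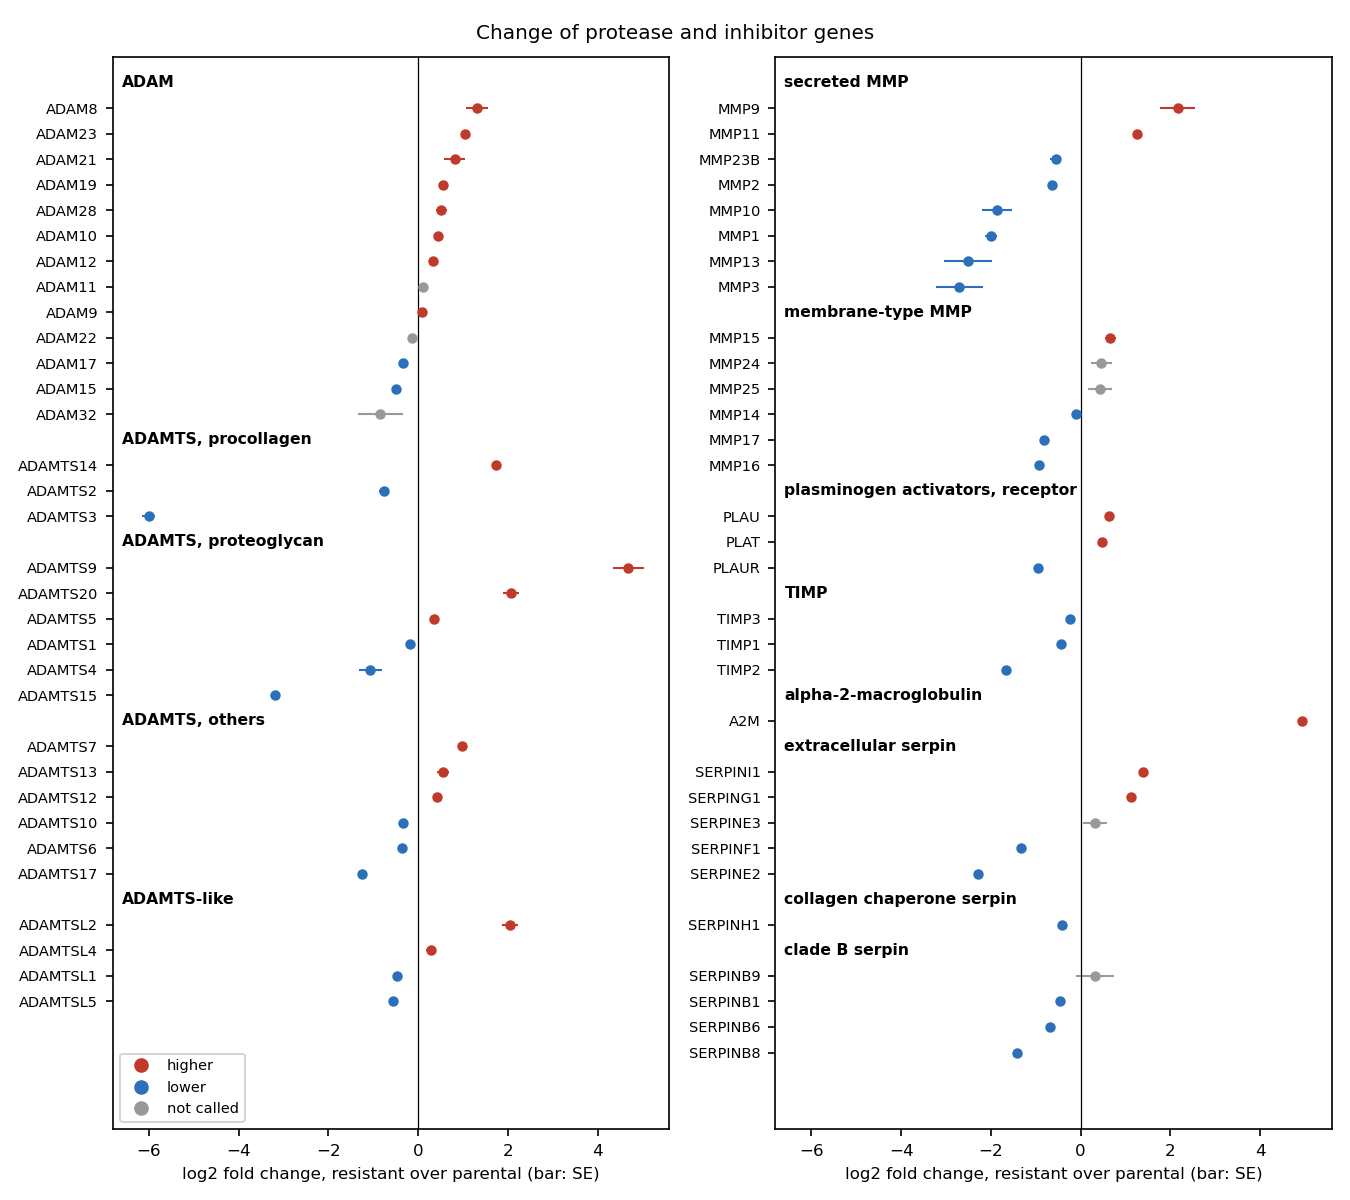
Log2 fold change, resistant over parental, of the genes described, grouped by role, with the standard error as a bar and the call as colour. ADAMTS3 at -6.00 and A2M at 4.93 are the extremes, all 3 TIMP genes lie below 0, and 8 of 13 ADAM genes were called higher.

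Most called ADAM genes were higher, 8 against 2 that fell, with 3 not called (median log2 fold change 0.33). ADAM23, which encodes a neuronal surface protein without protease activity, had 347 and 351 normalized counts in the parental and 702 and 735 in the resistant libraries. Its resistant values lie well above both parental ones, a log2 fold change of 1.04 (SE 0.08, limma adjusted p = 5.36e-12). The most abundant ADAM genes changed little. ADAM9, a widely expressed sheddase, had 15325 and 15422 in parental and 16601 and 16235 in resistant libraries (0.09, SE 0.03). Leaving out either parental library ended its call (limma adjusted p = 0.135 for replicate 1 and 0.0981 for replicate 2), as did testing against a 1.2-fold change or with an assumed dispersion of 0.01. ADAM12, which is made by fusing and regenerating muscle cells, had 12218 and 12043 in parental and 15033 and 15370.5 in resistant libraries (0.33, SE 0.03). The increase was of modest size, and it did not pass against a 1.2-fold change (limma adjusted p = 0.0624) or with the dispersion of 0.01 (edgeR adjusted p = 0.0541).

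The paired sheddases ADAM10 and ADAM17, which release Notch and growth factor ligands, moved in opposite directions. ADAM10, the main Notch and cadherin sheddase, rose from 3451 and 3573 to 4801 and 4760.1 (0.45, SE 0.04). ADAM17, the tumour necrosis factor converting enzyme, fell from 7107 and 7029.6 to 5519.7 and 5723 (-0.33, SE 0.03), and IAH1 covers 12.3% of its exonic bases from the opposite strand. IAH1 itself was lower, at 2005 in parental and 1298 in resistant cells as group means. The 20 neighbours of ADAM17 had a median of -0.25 and it differed from them by -0.08, while those of ADAM10 had a median of 0.23 and it differed by 0.21. The call of ADAM17 did not hold against a 1.2-fold change (limma adjusted p = 0.0791) or with the dispersion of 0.01 (edgeR adjusted p = 0.055). ADAM19, a protease of heart and muscle development, rose by 0.55 (SE 0.03), and ADAM15 fell, at -0.50 (SE 0.03). Among the weakly expressed members, ADAM8 rose by 1.31, from 30.9 and 23.9 to 63.8 and 74.5, and ADAM28 by 0.52, the latter not against a 1.2-fold change (limma adjusted p = 0.0601). ADAM21 rose by 0.82, but without parental replicate 2 its value was 0.52 (limma adjusted p = 0.0729). ADAM11 (0.12) and ADAM22 (-0.14), both catalytically inactive proteins of the nervous system, and ADAM32 (-0.84, 27 parental and 15 resistant reads) were not called. ADAM32 passed when resistant replicate 2 was left out (-1.40, limma adjusted p = 0.0419), and ADAM11 with libraries scaled to the same total (0.15, limma adjusted p = 0.0362).

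The 3 ADAMTS genes for procollagen N-proteinases, which trim the amino end of fibrillar procollagens, moved in opposite directions. ADAMTS3 had 1409 and 1383 normalized counts in parental and 23.8 and 18.1 in resistant libraries. This is 2848 reads against 41, and the parental level was 67.1 times the resistant one (exact 95% interval from 49.4 to 93.8, for counting error only). No tested gene among the 20 nearest on chromosome 4 had a value as low as that of ADAMTS3 (72280969 to 72569386), and their median was -0.16. ADAMTS14 moved the other way, from 599 and 542 to 1888 and 1935 (1.74, SE 0.06, limma adjusted p = 3.63e-19). ADAMTS2, the third enzyme of the group, fell from 429 and 399.6 to 229 and 258 (-0.77, SE 0.10). The highest of the group was ADAMTS3 in parental cells, at 195 normalized counts per kilobase of exon against 108 for ADAMTS14 and 47.5 for ADAMTS2. In resistant cells it was ADAMTS14, at 363 per kilobase, against 2.92 for ADAMTS3 and 27.9 for ADAMTS2. The sum of the 3 per kilobase was 341 to 359 in parental and 388 to 399 in resistant libraries, a smaller fold difference than that of any of the 3 genes.

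The ADAMTS proteoglycanases, which cut versican and aggrecan, split evenly, with 3 of 6 higher and 3 lower. ADAMTS15 had 2216 and 2246 normalized counts in parental and 230.5 and 262 in resistant libraries (-3.18, SE 0.07, limma adjusted p = 1.79e-23). None of its 20 neighbours on chromosome 11 lay below it: 12 were called higher and 3 lower. ADAMTS20 rose from 38.7 and 47.7 to 174 and 196 (2.08, SE 0.18). ADAMTS9 had 2.9 and 2.98 in parental and 97.4 and 104 in resistant libraries. These are 6 reads against 199, 34.3 times the parental level (counting interval 15.5 to 94.6). ADAMTS9 passed the filter on low values through the resistant libraries alone. ADAMTS1 and ADAMTS5 are neighbours on chromosome 21 and changed less than the other 4. ADAMTS1 was slightly lower, at 8992 and 8716 against 7729 and 7934 (-0.18, SE 0.03), a call lost against a 1.2-fold change and with the dispersion of 0.01 (edgeR adjusted p = 0.345). ADAMTS5, the main aggrecanase of cartilage, rose from 3209 and 3127 to 4044 and 4059.5 (0.36, SE 0.04). ADAMTS4 was low throughout, at 76.4 and 68.6 against 26.0 and 44.9 (-1.06, SE 0.25), and had a value of -0.68 without resistant replicate 1. Per kilobase, ADAMTS1 led in both groups, at 1254 and 1109.

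The other ADAMTS proteases gave 3 rises and 3 falls. ADAMTS7, a protease of cartilage and vessel wall, rose from 2669 and 2712 to 5008 and 5557 (0.97, SE 0.04), with the uncertainty that pseudogene copies of near-identical sequence exist. One of these, ADAMTS7P3, also rose, from 6.77 and 2.98 to 31.4 and 31.5, while ADAMTS7P4 was not called. ADAMTS12 rose from 2455 and 2384 to 3180.2 and 3356 (0.43, SE 0.04), and ADAMTS13, which cleaves von Willebrand factor, by 0.56 (SE 0.13). ADAMTS17, a gene tied to short stature and lens displacement in inherited disease, fell from 559.8 and 564 to 241 and 228 (-1.26, SE 0.09, limma adjusted p = 2.09e-12). ADAMTS6 (-0.35) and ADAMTS10 (-0.34) were lower by small amounts. The call of ADAMTS6 was lost without parental replicate 2 (limma adjusted p = 0.0679), and that of ADAMTS10 without parental replicate 1 (limma adjusted p = 0.0565), and both were lost against a 1.2-fold change and with the dispersion of 0.01.

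ADAMTS-like proteins share the ancillary domains of the family but have no protease domain and bind microfibrils. ADAMTSL2 had 45.4 and 45.7 normalized counts in parental and 157 and 234 in resistant libraries (2.05, SE 0.19, limma adjusted p = 2.28e-10). Both resistant values exceed the parental ones by a wide margin, although they differ between themselves. ADAMTSL5, the most abundant of the 4, fell from 544 and 552 to 378 and 365 (-0.56, SE 0.08), and ADAMTSL1 from 361 and 398 to 284 and 263 (-0.47, SE 0.10), the latter not against a 1.2-fold change (limma adjusted p = 0.0615). The gene ADAMTSL4-AS1 covers 11.4% of the exonic bases of ADAMTSL4 from the opposite strand. ADAMTSL4 was called higher (0.29, SE 0.11), but not by DESeq2 (DESeq2 adjusted p = 0.128), against a 1.2-fold change or with the dispersion of 0.01. Leaving out parental replicate 1 ended the call (limma adjusted p = 0.166), and so did leaving out resistant replicate 2 (limma adjusted p = 0.169).

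Secreted MMP genes were mostly lower, 6 of 8, with a median log2 fold change of -1.25. The 4 genes MMP10, MMP1, MMP3 and MMP13, which encode collagenases and stromelysins, lie within 185 kilobases of chromosome 11 (from 102770503 for MMP10 to 102955734 for MMP13), and all 4 fell. They were set together after their values were seen. MMP1, interstitial collagenase, had 280.4 and 267 normalized counts in parental and 67.1 and 68.7 in resistant libraries (-1.996, SE 0.14, limma adjusted p = 1.45e-12). MMP10, stromelysin-2, went from 40.6 and 42.7 to 10.8 and 10.5, with 85 parental and 21 resistant reads and a ratio of 3.91 (counting interval 2.40 to 6.64). MMP3, stromelysin-1, went from 28.0 and 16.9 to 2.16 and 2.86 (46 against 5 reads), a ratio of 8.89 (3.55 to 28.7). MMP13, collagenase-3, went from 18.4 and 19.9 to 3.25 and 1.91 (39 against 5 reads), a ratio of 7.54 (2.97 to 24.5). MMP3 and MMP13 passed the filter on low values through the parental libraries alone. Of the 10 tested genes that flank the cluster, 5 on each side, the log2 fold changes ran from -1.30 (BIRC3) to 2.38 with a median of -0.01.

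The gelatinases MMP2 and MMP9 moved in opposite directions, and MMP11 rose. MMP2, gelatinase A, which is activated at the cell surface by MMP14 together with TIMP2, fell from 9533 and 9352 to 5990.4 and 6188 (-0.63, SE 0.03). MMP11, stromelysin-3, rose from 452 and 468 to 1145 and 1066 (1.26, SE 0.07, limma adjusted p = 5.68e-15). MMP9, gelatinase B, rose from a very low level, 7.73 and 6.96 against 27.1 and 48.7, which is 15 against 76 reads and a ratio of 5.24 (counting interval 2.99 to 9.82). MMP9 passed the filter on low values through the resistant libraries alone. The antisense gene SLC12A5-AS1 covers 18.4% of the exonic bases of MMP9, and no strand setting is given in the sources used here. SLC12A5-AS1 itself was lower, at 57.9 in parental and 38.4 in resistant cells as group means. MMP23B fell by 0.56 on the log2 scale, and its close copy MMP23A, a pseudogene, was lower too, so the counts of that pair are uncertain.

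Of 6 membrane-type MMP genes, 1 rose, 3 fell and 2 were not called. MMP14, the membrane collagenase that activates MMP2, was by far the most abundant, with 17116 and 17041 normalized counts in parental and 15828 and 15844 in resistant libraries (-0.11, SE 0.03). Its groups do not overlap, but the call was lost without parental replicate 1 (limma adjusted p = 0.0763) or parental replicate 2 (limma adjusted p = 0.0598), against a 1.2-fold change and with the dispersion of 0.01. MMP16 fell from 2384 and 2302 to 1223 in both resistant libraries (-0.94, SE 0.05), and MMP17, a protease held to the membrane by a lipid anchor, from 1161 and 1171 to 628 and 701 (-0.81, SE 0.07). MMP15 rose by 0.66 (SE 0.12). MMP24 (0.46) and MMP25 (0.43) were not called. Leaving out parental replicate 1 gave MMP24 a call (0.72, limma adjusted p = 0.0208), as did leaving out resistant replicate 1 (0.69, limma adjusted p = 0.0202). MMP25 was called when parental replicate 2 was left out (0.73, limma adjusted p = 0.0431). Genes on the opposite strand cover 18.1% (MMP24OS) and 35.2% (MMP25-AS1) of the exonic bases of MMP24 and MMP25. As parental and resistant group means, MMP24OS was lower (1346 and 886) and MMP25-AS1 higher (174 and 236).

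**Figure D2:**
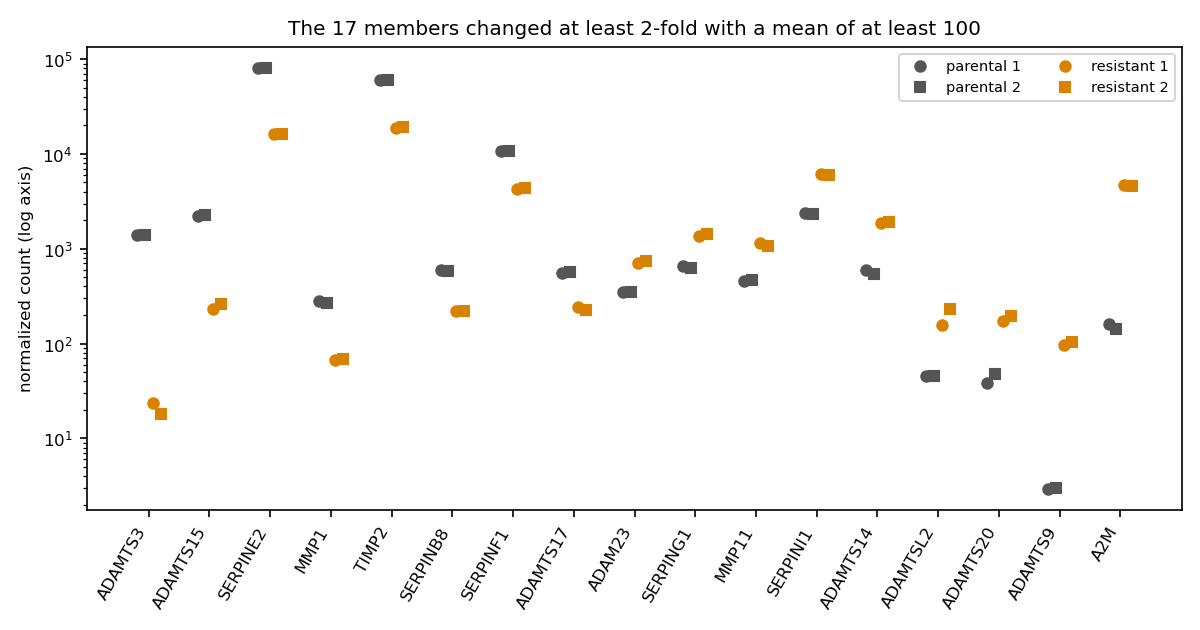
Normalized count on a log axis in each of the 4 libraries for the 17 members that were called with a change of at least 2-fold and the larger group mean at or above 100, 9 higher and 8 lower. Circles and squares are replicates 1 and 2, grey is parental and orange is resistant. The genes were chosen for the size of their change, which runs from -6.00 for ADAMTS3 to 4.93 for A2M. ADAMTS9 passed the filter on low values through its resistant libraries alone.

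In the plasminogen activation genes, both activators rose and the receptor fell. PLAU, urokinase, had 25704 and 25565 normalized counts in parental and 39969 and 39639.9 in resistant libraries (0.63, SE 0.03, limma adjusted p = 2.28e-17). PLAT, tissue plasminogen activator, rose from 8968 and 8812 to 12156 and 12449 (0.47, SE 0.03). PLAUR, the urokinase receptor, fell from 8764 and 8859.8 to 4595 and 4564 (-0.94, SE 0.03, limma adjusted p = 5.03e-19). PLAU was the most abundant protease gene per kilobase of exon, at 8689.7 in parental and 13493 in resistant cells, with C10orf55 covering 31.1% of its exonic bases from the opposite strand. C10orf55 had 190 and 284 normalized counts as group means, a small number beside those of PLAU. The genes around PLAU on chromosome 10 had a median of 0.43, and the difference of PLAU from them was 0.20. Those around PLAT had a median of 0.34, and the difference of PLAT was 0.13.

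All 3 measured TIMP genes were lower. TIMP2, which both inhibits MMPs and takes part in MMP2 activation, had 60907 and 60674 normalized counts in parental and 18989.5 and 19239 in resistant libraries (-1.67, SE 0.03, limma adjusted p = 1.82e-26). The 20 tested genes nearest to TIMP2 (chromosome 17, 78852977 to 78925387) had a median log2 fold change of -1.39, and 16 of them were called lower and 1 higher. Relative to this median, TIMP2 had a log2 value of -0.28. Over all genes, the median of 20 neighbours lay between -0.51 and 0.49 at the 5th and 95th percentiles. TIMP1, a broadly acting inhibitor, fell from 9349 and 9256 to 6599.6 and 7179.8 (-0.43, SE 0.04), and TIMP3, which binds to matrix and also inhibits ADAM17, from 12844 and 12909.9 to 10959 and 10957 (-0.23, SE 0.03). The neighbours of TIMP1 and TIMP3 had medians of 0.05 and 0.04. The call of TIMP3 was lost against a 1.2-fold change and with the dispersion of 0.01 (edgeR adjusted p = 0.195).

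A2M, which was low in parental cells, had 161 and 141 normalized counts in parental and 4668 and 4603 in resistant libraries, a log2 fold change of 4.93 (SE 0.07, limma adjusted p = 8.26e-28). None of its 20 neighbours on chromosome 12 was called lower and 16 were called higher, with a median of 0.55, and all 20 lay below A2M. The antisense gene A2M-AS1 covers 8.79% of its exonic bases. Per kilobase, A2M went from 23.7 to 726, still below TIMP1, TIMP2 and TIMP3 at 4471, 3393 and 2381 in resistant cells.

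Extracellular serpins changed in both directions, 3 higher, 2 lower and 1 not called. SERPINE2, protease nexin-1, which inhibits thrombin and the plasminogen activators, had 80361 and 80561 normalized counts in parental and 16329 and 16436 in resistant libraries (-2.30, SE 0.03, limma adjusted p = 2.35e-29). SERPINE2 and TIMP2 together made up 36.1 and 36.2% of the members' summed normalized counts in parental and 12.6 and 12.5% in resistant libraries. No neighbour of SERPINE2 fell as far, and the median of the 20 genes around it on chromosome 2 was 0.26. Per kilobase, SERPINE2 stood at 9049.7 in parental and 1843 in resistant cells.

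SERPINF1, pigment epithelium-derived factor, a serpin without inhibitory activity that restrains blood vessel growth, fell from 10684 and 10818 to 4218 and 4391 (-1.32, SE 0.03, limma adjusted p = 4.21e-22). SERPINI1, neuroserpin, an inhibitor of tissue plasminogen activator made mainly by neurons, rose from 2385 and 2305 to 6208 and 6012 (1.38, SE 0.04, limma adjusted p = 3e-21). SERPING1, the C1 inhibitor of complement and an interferon-responsive gene, rose from 658 and 630.3 to 1379 and 1429 (1.12, SE 0.06). SERPINE3 (0.32) was not called, and INTS6, also not called, covers 30.3% of its exonic bases from the opposite strand. SERPINH1, the collagen chaperone HSP47 of the endoplasmic reticulum, does not inhibit proteases. It fell from 49079 and 48837 to 35603 and 38054 (-0.41, SE 0.03).

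Clade B serpins act mainly inside cells, and 3 of the 4 measured were lower. SERPINB8 had 599 and 588 normalized counts in parental and 221 and 222 in resistant libraries (-1.42, SE 0.09, limma adjusted p = 1.46e-13). SERPINB6, an inhibitor of cathepsin G, fell from 2870.5 and 2921 to 1828 and 1799 (-0.67, SE 0.04), and SERPINB1, an inhibitor of neutrophil proteases, from 1245 and 1259.6 to 957 and 855 (-0.47, SE 0.06). SERPINB9, the granzyme B inhibitor, had 9.67 and 15.9 against 21.6 and 11.5, with overlapping groups. SERPINB1, SERPINB9 and SERPINB6 lie side by side on chromosome 6, between 2832332 and 2972165, and the medians of their neighbours were -0.89, -0.80 and -0.70. Set against these, SERPINB1 was higher (0.42), SERPINB6 did not pass (0.03) and SERPINB9 passed as higher (1.13, limma adjusted p = 0.024). The error of the neighbour median is not part of these tests.

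**Figure D3:**
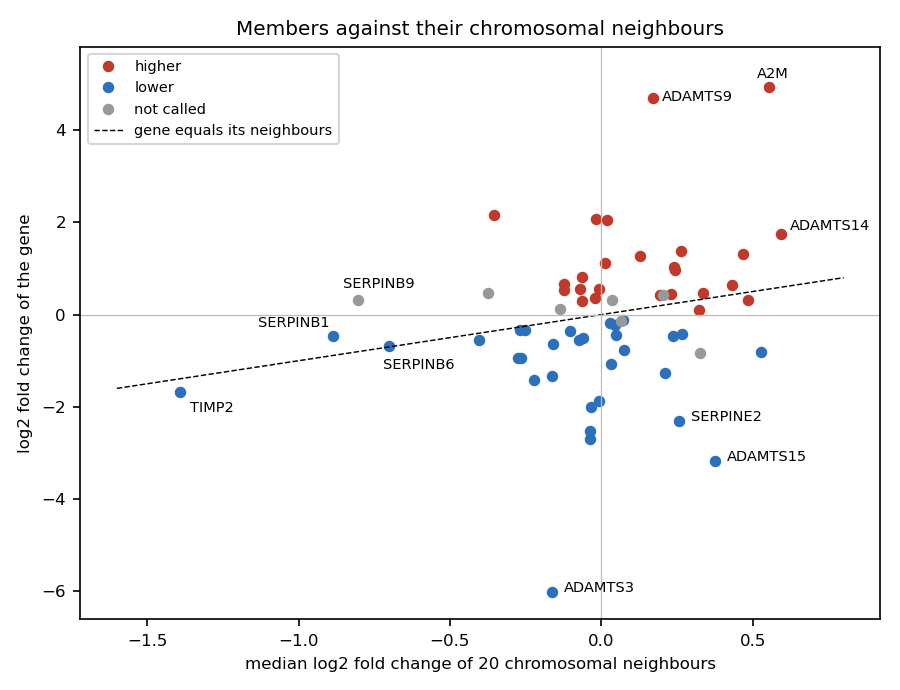
Log2 fold change of the members described against the median of the 10 tested genes on each side of it on the chromosome, coloured by call, with a dashed line where a gene equals its neighbours. TIMP2, SERPINB6 and SERPINB1 lie at neighbour medians of -1.39, -0.70 and -0.89, and ADAMTS3, ADAMTS15, ADAMTS9, SERPINE2 and A2M lie far from the line.

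With neighbours taken as the reference, 60 of 64 members kept the sign of their change. The other 4 were SERPINB1, SERPINB6, ADAM9 and ADAM12. The share over all genes was not computed. Neighbour medians lay mostly between -0.51 and 0.49, against a median size of change of 0.65 for the members, so many signs could hardly turn. In 10 called members the value kept its sign but shrank by over 1.5 times, among them ADAM8 (to 0.84) and ADAMTS12 (to 0.24), as well as ADAM10, ADAM17, PLAU, PLAT and TIMP2 given above. Relative to its neighbours ADAM9 had a log2 value of -0.23, and ADAM12 of -0.16. MMP23B (-0.15) and ADAMTS10 (-0.07) no longer passed there, and ADAM11 (0.25), ADAM22 (-0.21), ADAM32 (-1.17) and MMP24 (0.83) passed. ADAMTS14, whose neighbours on chromosome 10 had a median of 0.59 with 14 of 20 called higher, was above them by 1.15. MMP17 fell among neighbours with a median of 0.53, a difference of -1.34.

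Levels of proteases and of their inhibitors were also set side by side within each library, per kilobase of exon, for pairs chosen after the values were seen. The ratio of MMP14 to TIMP2 was 0.355 and 0.354 in the parental and 1.05 and 1.04 in the resistant libraries. MMP2 over TIMP2 was 0.179 and 0.176 against 0.360 and 0.367, although MMP2 itself fell. In each of these ratios both resistant values exceed both parental ones. Both divide by TIMP2, which fell (-1.67) beside -0.11 for MMP14 and -0.63 for MMP2, so they restate that fall and are not separate results. With 2 libraries a group an exact test over libraries cannot reach the threshold, so these ratios are given as a description. Summed over the 15 genes of the inhibitor families, SERPINF1 and SERPINH1 included, levels per kilobase were 44329 and 44264.5 in parental and 25705 and 26614 in resistant libraries. Without SERPINE2 and TIMP2, the other 13 summed to 24478 and 24432 in parental and 20497 and 21350 in resistant libraries. These 13 still include SERPINF1 (3503 and 1403 as parental and resistant group means) and SERPINH1 (7795 and 5864), which do not inhibit proteases. The 4 genes of these families that were called higher are also among the 13. A sum without SERPINF1 and SERPINH1 was not made, so the lower value does not describe the inhibitors alone. The 44 genes of the protease families summed to 26386 and 26199 in parental and 30916 and 31055 in resistant libraries. PLAU carried this difference, since the 43 others summed to 17673 and 17533 in parental and 17367 and 17618 in resistant libraries, with overlapping groups. These are RNA levels and do not measure protease activity.

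**Figure D4:**
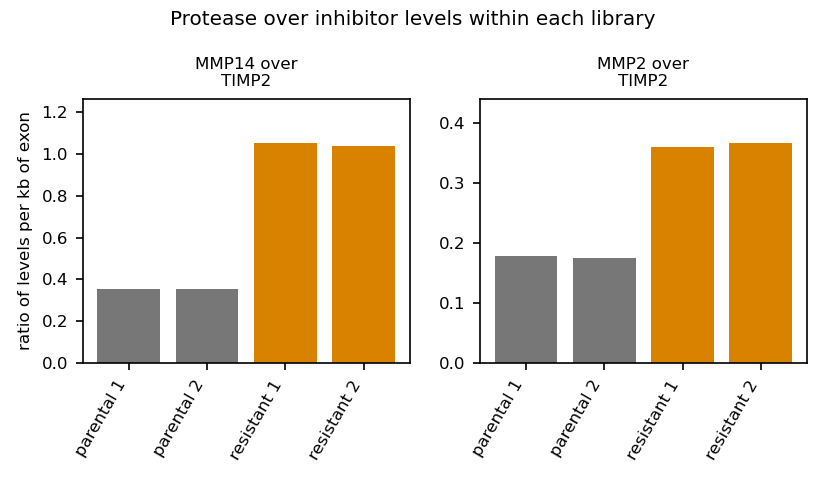
Ratios of levels per kilobase of exon within each library for MMP14 and MMP2 over TIMP2, grey for parental and orange for resistant. MMP14 over TIMP2 is 0.355 and 0.354 in parental and 1.05 and 1.04 in resistant libraries, and MMP2 over TIMP2 0.179 and 0.176 against 0.360 and 0.367.

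Other genes of the same systems were counted from lists, for which the share of all genes called is the 66.9% given above. Of 18 regulators and clearance receptors, 8 rose, 8 fell and 2 were not called. The testican gene SPOCK2 (2.47), the ADAM10 partner tetraspanin TSPAN33 (2.34) and the sorting receptor SORL1 (1.93) rose. RHBDF2, which encodes the iRhom2 cofactor of ADAM17, fell from 6758 to 1885 normalized counts as group means (-1.84), and it lies on chromosome 17 where its neighbours had a median of -1.37. RHBDF1 (-0.59), SPOCK1 (-0.77) and SPOCK3 (-0.67) fell as well, and LRP1, the clearance receptor of serpin and protease complexes, was not called (15953 against 15962). Of 9 listed genes for plasminogen, its receptors and cofactors, 7 were measured, and of these 1 rose and 4 fell. PLG, the plasminogen gene, and CPB2 were not among the genes measured. S100A10 (-0.73) and ANXA2 (-0.56), which together form a plasminogen receptor, fell, as did IGF2R (-0.30), and PLGRKT rose (0.54).

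Of 22 other secreted or surface protease genes 18 were measured, of which 8 rose and 8 fell. PAPPA, which cuts insulin-like growth factor binding proteins, rose by 2.70, FAP, also on the fibroblast marker list, by 2.28 and the tolloid-like protease gene TLL2 by 1.64. The proprotein convertase gene PCSK5 fell from 952 to 139 normalized counts as group means (-2.78), and HTRA3 (-0.54) and ECE1 (-0.33) fell. Of 15 other inhibitor genes 9 were measured, of which 4 rose and 4 fell. The Kunitz inhibitor genes TFPI2 (-1.83) and TFPI (-1.28) and the gene WFDC1 (-2.17) fell, while SPINT1 (1.15) and KAZALD1 (0.92) rose. Of 20 substrate genes 18 were measured, of which 12 rose and 5 fell. Among them the proteoglycan genes BCAN (1.77) and VCAN (0.52) and the cadherin gene CDH2 (0.44) rose, and the surface genes EGFR (-0.87), CD44 (-0.82) and HBEGF (-0.34) fell.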

How the data were processed

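Poly(A) RNA of 4 libraries was sequenced, 2 parental and 2 resistant, and groups and replicate numbers come from the sample titles. The build was GRCh38, and STAR 2.5.2b, bcl2fastq 2.17, Subread 1.5.2 with featureCounts, and DESeq2 were used, per the submitters' processing notes. For the annotation and strand setting, the sources used here give nothing. The deposited library columns are a signal, gene counts that the authors scaled by a size factor. In each of the 4 libraries 100% of values were whole multiples of one step (tolerance 0.01), so reads were recovered. The deposited log2 fold changes and p-values of the authors, named per the file headers, were not used for results. The smallest mean in the table was 9.98.

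Genes with at least 10 in at least 2 libraries (18330) were fitted on log2(value + 1) with limma 3.58.1 (group only, eBayes with trend), adjusted over all of them at 0.05. Fold changes are on that scale, which understates changes of low genes. All p-values given as limma's come from that fit or a stated variant of it. Alternatives were edgeR 4.0.16 and DESeq2 1.42.0 on recovered reads, other pseudocounts, filters and scaling, each library left out, the replicate number as a block, limma's test against 1.2-fold, a fixed dispersion of 0.01, and removal of the median of 10 tested neighbours on each side (GENCODE 29, which placed 96.9% of rows). Levels per kilobase divide by the merged length of all GENCODE 29 exons of a gene, not by the length of an expressed transcript. Rankings between genes, family sums and the size of the ratios therefore depend on that annotation. Counting intervals are exact binomial intervals. The common dispersion between replicates was 0.000566 (edgeR), so small changes pass.

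The members and lists were chosen with earlier results of these data known. Per-library values are given for called members that changed at least 2-fold and whose larger group mean reached 100, and for the 2 most abundant of each role. Of each list, up to 3 called genes in each direction with a mean of at least 100 are named. LRP1, RHBDF1 and other genes named outside these rules, such as the low members MMP3, MMP9, MMP10 and MMP13, were chosen after their values were seen. The values of 1 member are not reported here.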

Additional observations from a re-analysis of the deposited data

How the results depend on the processing

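Of the 57 called members, 41 kept their call and direction in every one of the 15 alternative settings that gave a value. The direction reversed for 4 members, all when the median of chromosomal neighbours was removed: ADAM9 (-0.23), ADAM12 (-0.16), SERPINB6 (0.0255) and SERPINB1 (0.42). The cause was not tested. Members called higher ranged from 25 to 27 and members called lower from 29 to 32 when one library was left out. Against a 1.2-fold change 21 members were higher and 24 lower, and with a dispersion of 0.01 in edgeR 22 and 25. For the other genes of the system, 21 were higher and 18 lower against a 1.2-fold change, and 19 lower with the dispersion of 0.01, where fewer small changes can pass. Same-numbered libraries did not deviate together (correlation across genes -0.03). With 2 libraries a group, this cannot show whether same-numbered samples were handled together. With the replicate block 26 members were higher and 31 lower, as without it. Scaling to the same total changed 1 member call, that of ADAM11. Members with few reads (MMP3, MMP9, MMP10, MMP13, ADAMTS9, ADAM32 and SERPINB9) are limited by depth, as their counting intervals show.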
